A study of Mus musculus with 4 samples.

Results

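A set of 10 genes that heart muscle raises under mechanical load or during hypertrophic growth were followed in left ventricular RNA of VSFP2.3 transgenic and wild-type mice. They were the 10 rows of the raw count table whose gene symbol was Ankrd1, Fhl1, Fhl2, Csrp3, Xirp1, Xirp2, Acta1, Rcan1, Gdf15 or Uchl1, of 38355 genes in all. Each symbol matched 1 row, and all 10 passed the filter on low counts, which kept 14189 genes. The VSFP2.3 transgene encodes a fluorescent voltage reporter, targeted to cardiomyocytes per the study's title, and the stated purpose of the sequencing was to look for toxicity of the transgene in the heart. For its driving promoter, founder line and strain background, no statement was found in the labels.

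The wild-type (WT) group held a 35-week male (WT 1) and a 19-week female (WT 2). The VSFP2.3 transgenic (TG) group held a 35-week male (TG 1) and a 19-week female (TG 2). No mouse was treated, the same parents are recorded for all 4, and each gave 1 library from the left ventricular free wall. The 2 mice of one sex and age are called a pair below, and within this design sex and age cannot be told apart. No transgene transcript was measured in the analysis, so the genotype labels were not checked against one.

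Cardiomyocytes sense stretch at the Z-disc, at the elastic I-band part of the giant protein titin and at the intercalated disc, where the contractile apparatus of neighbouring cells is joined. Proteins bound at these places signal to the nucleus, and calcium-dependent signalling through the phosphatase calcineurin acts in parallel. A loaded ventricle typically re-expresses fetal isoforms and raises the messenger RNA of several of the stretch-sensing proteins themselves. Some members are therefore both parts of the sensor and readouts of load.

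The DNA before the start of 4 members is shown because these short stretches hold the sequence motifs through which load-responsive regulators are known to act, and because the 4 differ in how steady their RNA was across the hearts. Promoter sequence came from RefSeq on GRCm38.p6, the mm10 assembly, which held 14 start sites for 9 of the 10 members and none for Xirp1. The search covered the 250 bases before each start on both strands. It used CATTCC (the MCAT element bound by TEAD factors), the CArG box bound by SRF, the MEF2 site, GGAAA (the core bound by NFAT, the target of calcineurin), TGANTCA (AP-1) and TATAAA. MEF2 and TATAAA matches can overlap, which occurs in none of the 4 stretches shown. Capitals mark the matches, and each sequence runs 5′ to 3′ on the minus strand, which is the coding strand of all 4 genes.
Ankrd1, chr19:36119911-36120094: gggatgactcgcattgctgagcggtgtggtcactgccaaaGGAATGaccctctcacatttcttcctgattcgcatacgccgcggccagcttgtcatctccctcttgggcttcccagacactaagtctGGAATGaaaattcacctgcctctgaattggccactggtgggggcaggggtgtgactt
Acta1, chr8:123894776-123895025: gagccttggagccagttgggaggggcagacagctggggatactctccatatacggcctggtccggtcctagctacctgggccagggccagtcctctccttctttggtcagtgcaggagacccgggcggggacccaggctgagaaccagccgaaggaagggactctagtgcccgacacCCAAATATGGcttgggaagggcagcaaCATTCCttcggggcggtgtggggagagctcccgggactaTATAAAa
Rcan1, second listed start, chr16:92400079-92400328: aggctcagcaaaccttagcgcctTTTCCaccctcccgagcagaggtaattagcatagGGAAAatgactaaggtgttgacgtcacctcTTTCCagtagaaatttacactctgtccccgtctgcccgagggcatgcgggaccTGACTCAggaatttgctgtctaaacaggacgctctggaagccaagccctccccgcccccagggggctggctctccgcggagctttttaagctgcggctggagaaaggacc
Fhl2, second listed start, chr1:43163962-43164211: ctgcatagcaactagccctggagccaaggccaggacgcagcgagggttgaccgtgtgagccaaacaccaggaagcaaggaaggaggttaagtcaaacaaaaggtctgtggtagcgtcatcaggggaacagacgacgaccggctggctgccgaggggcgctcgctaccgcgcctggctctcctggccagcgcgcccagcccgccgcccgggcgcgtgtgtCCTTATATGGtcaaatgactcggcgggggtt

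Acta1 carried a CArG box 73 to 64 bases, an MCAT element 46 to 41 bases and a TATAAA 7 to 2 bases before its listed RefSeq start. In GENCODE the gene begins further downstream, at base 123894751, so these distances depend on the start used. Ankrd1 carried 2 MCAT elements, at 210 to 205 and 123 to 118 bases before its RefSeq start. Its stretch is shown upstream of the exon end that most GENCODE transcripts share, and 1 annotated transcript begins further upstream and covers it. The second start of Rcan1, from which the calcineurin-inducible short form is known to be made, carried 3 NFAT cores and 1 AP-1 site, and its first start carried none of the motifs searched. Both listed starts of Fhl2 carried a CArG box, as did 1 of the 2 starts of Fhl1. Counted per window, a CArG box was in 4 of the members' 14 windows and in 1.47% of all 32851 promoter windows of the same length. An MCAT element was in 3 of 14 and in 12.6% of all, an NFAT core in 5 of 14 and in 55.6%, an MEF2 site in 2 of 14 and in 2.92%, an AP-1 site in 2 of 14 and in 6.75%, and a TATAAA in 3 of 14 and in 12.4%. These are matches of letters, and the counts do not tell which start of a gene was used.

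Library totals were 14158440 to 16762713 counts, with 18334 to 19001 genes detected. Levels are given as CPM, the counts scaled by TMM-adjusted library size, on which 3 counts, the most that a count of 0 allows, correspond to 0.182 to 0.213 CPM, counting error only. The labelled tissue matched its markers: the cardiomyocyte genes Tnni3 and Myl2 were at 3444 to 3620 and 7672 to 7948 CPM. WT 2 stood apart from the other libraries. Protein-coding genes took 89.9% of its counts against 96.7% to 97.4% elsewhere. Yam1 had 685444 counts in it against 2094 to 7376 elsewhere, and Lars2 137304 against 314 to 780. The atrial genes Myl4 and Myl7 were at 75.6 and 71.1 CPM in WT 2 against at most 1.16 CPM elsewhere. The full list of 7 atrial markers did not follow them. It summed to 3720 CPM in WT 1, 1250 in WT 2, 1560 in TG 1 and 4240 in TG 2, and most of each sum was Nppa. Leukocyte markers split the libraries differently, with WT 1 and TG 2 high, as given below. The p-values below come from fits to 4 animals, no 2 of which shared genotype, sex and age. Each main fit holds a single factor, so the spread it uses includes any effect of the factors left out.

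**Figure D1:**
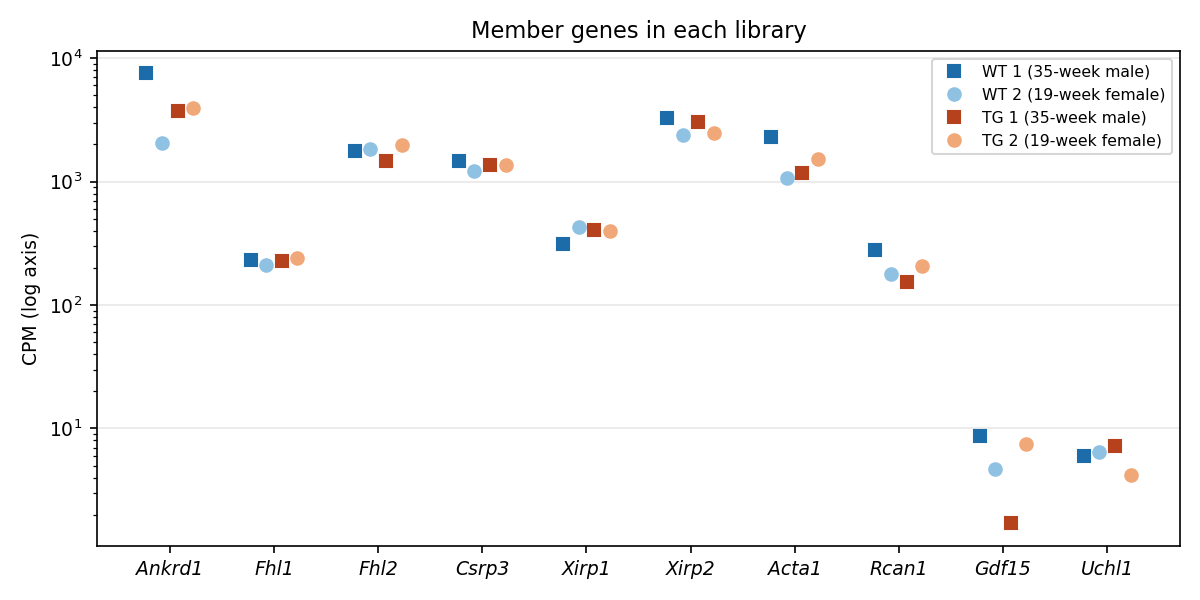
Level of each of the 10 genes in each of the 4 libraries, in CPM on a log axis, with blue for WT, red and orange for TG, squares for the 35-week males and circles for the 19-week females. Ankrd1 ran from 2042 to 7540 CPM, while the 4 Fhl1 points lay between 212 and 239 CPM.

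Per length, Ankrd1, Acta1 and Fhl2 were among the most abundant messages of the ventricle, and Gdf15 and Uchl1 were far below them. Over the 4 libraries the mean level was 1493 ± 802 CPM per kb of exon (SD) for Ankrd1, 987 ± 361 for Acta1, 929 ± 114 for Fhl2 and 506 ± 37.7 for Csrp3. Next came Xirp2 at 232 ± 37.0 CPM per kb, Rcan1 at 66.1 ± 17.7, Xirp1 at 65.9 ± 9.01 and Fhl1 at 61.1 ± 2.99. Uchl1 was at 3.65 ± 0.784 and Gdf15 at 3.03 ± 1.67 CPM per kb. The spreads overlapped between Ankrd1, Acta1 and Fhl2, among Rcan1, Xirp1 and Fhl1, and between Uchl1 and Gdf15. By this measure Ankrd1 ranked 18 among the 14189 tested genes, Acta1 26, Fhl2 29 and Csrp3 66, while Uchl1 ranked 7463 and Gdf15 8149, near the middle.

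The coefficient of variation of the CPM over the 4 hearts separated steady from variable members. It was 4.90% for Fhl1, 7.45% for Csrp3, 12.3% for Fhl2, 13.7% for Xirp1 and 15.9% for Xirp2. The variable members were Uchl1 at 21.4%, Rcan1 at 26.7%, Acta1 at 36.6%, Ankrd1 at 53.7% and Gdf15 at 55.02%.

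Among the titin-associated and Z-disc members, Ankrd1 varied most and the LIM proteins least. Ankrd1 (ENSMUSG00000024803, chromosome 19, 36111961 to 36120099) encodes the cardiac ankyrin repeat protein, which binds titin's I-band and also acts in the nucleus. It was at 7540 CPM in WT 1, 2042 in WT 2, 3695 in TG 1 and 3963 in TG 2. Both the highest and the lowest value were WT, and the TG hearts lay between them with nearly equal levels. Fhl1 (ENSMUSG00000023092, chromosome X, 56731787 to 56793346), a LIM-only protein of the same titin region, was at 230 CPM in WT 1, 212 in WT 2, 226 in TG 1 and 239 in TG 2. Fhl2 (ENSMUSG00000008136, chromosome 1, 43123074 to 43196984), its relative that can also act as a transcriptional cofactor, was at 1756 CPM in WT 1, 1836 in WT 2, 1471 in TG 1 and 1987 in TG 2. TG 1 was lowest and TG 2 highest, with both WT hearts between. Csrp3 (ENSMUSG00000030470, chromosome 7, 48830398 to 48848033) encodes muscle LIM protein, a Z-disc stretch-signalling protein. It was at 1468 CPM in WT 1, 1222 in WT 2, 1360 in TG 1 and 1352 in TG 2, with both TG hearts between the WT hearts.

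At the intercalated disc, the Xin-repeat genes moved little. Xirp1 (ENSMUSG00000079243, chromosome 9, 120013755 to 120023598) encodes Xin, an actin-binding protein of the disc. Its level was 309 CPM in WT 1, 431 in WT 2, 404 in TG 1 and 395 in TG 2, with WT 1 lowest. Xirp2 (ENSMUSG00000027022, chromosome 2, 67446002 to 67526614), its longer relative, stood at 3299 CPM in WT 1, 2366 in WT 2, 3009 in TG 1 and 2468 in TG 2. Both 35-week males were above both 19-week females. Its exons overlap those of Gm13601 on the opposite strand over 1.4% of their length, and Gm13601 had at most 6 counts in any library.

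The fetal actin and the calcineurin feedback gene were both highest in WT 1. Acta1 (ENSMUSG00000031972, chromosome 8, 123891769 to 123894751) encodes skeletal alpha-actin, the fetal isoform that a loaded ventricle re-expresses. It was at 2298 CPM in WT 1, 1076 in WT 2, 1174 in TG 1 and 1514 in TG 2. Cardiac actin Actc1, the adult isoform, was at 11880 CPM in WT 1, 10490 in WT 2, 12240 in TG 1 and 11990 in TG 2. The fast skeletal myosin genes Myh1, Myh2 and Myh4 were nearly absent, at no more than 0.285 CPM in any library. Rcan1 (ENSMUSG00000022951, chromosome 16, 92391953 to 92470867) encodes a calcineurin inhibitor that calcineurin itself induces. It was at 278 CPM in WT 1, 177 in WT 2, 153 in TG 1 and 208 in TG 2. For both genes WT 1 and TG 2 were above WT 2 and TG 1.

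The 2 low-level members carried counting error of their own. Gdf15 (ENSMUSG00000038508, chromosome 8, 70629393 to 70632456) encodes a secreted stress cytokine of the TGF-beta family. It had 142 counts in WT 1, 73 in WT 2, 24 in TG 1 and 112 in TG 2, or 8.63, 4.67, 1.71 and 7.44 CPM in that order, with TG 1 far below the others. Uchl1 (ENSMUSG00000029223, chromosome 5, 66676091 to 66687234) encodes a deubiquitinating enzyme best known from neurons. It had 99, 101, 101 and 63 counts in WT 1, WT 2, TG 1 and TG 2, or 6.02, 6.46, 7.18 and 4.18 CPM. The 9 nerve markers summed to 21.8 CPM in WT 1, 15.5 in WT 2, 20.8 in TG 1 and 16.9 in TG 2. Of these markers Snap25 had no count in any library, Th had none outside WT 2, and their part in the Uchl1 level was not tested. The antisense gene Uchl1os, which overlaps 18.1% of the exonic length of Uchl1, had 0 counts in all 4 libraries.

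The first comparison asked whether TG hearts differed from WT hearts, and no member passed the test. All 10 overlapped between the genotypes, where 21% of the tested genes did not overlap. Fitted values were higher in TG for 3 members and lower for 7, and their median was -0.10 on the log2 scale against -0.01 over all tested genes. By the quasi-likelihood test of edgeR, after Benjamini-Hochberg adjustment, 0 of the 10 members were called and 0% of the tested genes, while 0 of 10 members had an unadjusted p below 0.05 against 0.698% of tested genes. DESeq2 and limma-voom also called 0 members.

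How large a TG effect these data leave room for differed by gene. For Csrp3 the log2 fold change of TG over WT was 0.01 ± 0.15 (SE, 2 mice per genotype here and below), with a 95% interval from 0.765-fold to 1.33-fold. For Fhl1 it was 0.07 ± 0.14 (0.817-fold to 1.35-fold), for Fhl2 -0.05 ± 0.19 (0.685-fold to 1.35-fold) and for Xirp2 -0.05 ± 0.22 (0.652-fold to 1.43-fold). Xirp1 stood at 0.11 ± 0.20, with an interval of 0.753-fold to 1.55-fold. The intervals were wider for the 5 members that varied most. They ran from 0.273-fold to 2.34-fold for Ankrd1 (log2 fold change -0.32 ± 0.60) and from 0.186-fold to 2.55-fold for Gdf15 (-0.54 ± 0.73). For Acta1 the interval was 0.397-fold to 1.60-fold, for Rcan1 0.474-fold to 1.33-fold and for Uchl1 (-0.14 ± 0.33) 0.502-fold to 1.65-fold. The adjusted p was 1.00 for each of the 10. Leaving out 1 library turned the sign for 9 of the 10, all but Fhl1, so no direction is read from them.

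**Figure D2:**
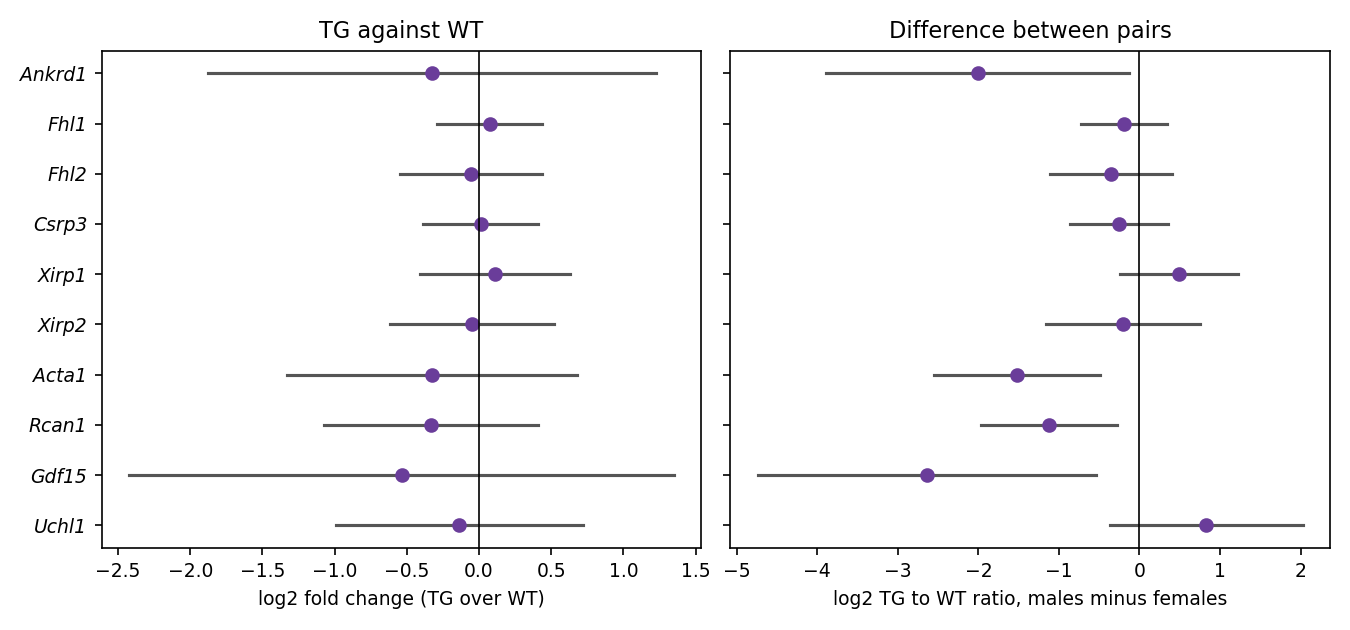
Fitted log2 values of the 10 genes with 95% intervals (lines), for TG over WT on the left and for the difference in the TG to WT ratio between the male and the female pair on the right, on separate log2 axes. On the left each interval spans 0, and on the right those of Ankrd1, Acta1, Rcan1 and Gdf15 lie below 0 before adjustment over all genes.

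Within pairs, the TG to WT ratio of all 10 members pointed one way in the males and the other way in the females, which was so for 64.7% of the tested genes. In the 35-week males the log2 ratio of TG 1 to WT 1 was -2.25 for Gdf15, -1.03 for Ankrd1, -0.97 for Acta1 and -0.86 for Rcan1. In the 19-week females the ratio of TG 2 to WT 2 was 0.66 for Gdf15, 0.96 for Ankrd1, 0.49 for Acta1 and 0.24 for Rcan1. Fhl2, Csrp3, Xirp2 and Fhl1 had the same signs with sizes from 0.03 to 0.26. Xirp1 and Uchl1 went the other way, at 0.39 and 0.25 in the males and -0.12 and -0.61 in the females. Each ratio within a pair compares 1 mouse with 1 mouse.

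**Figure D3:**
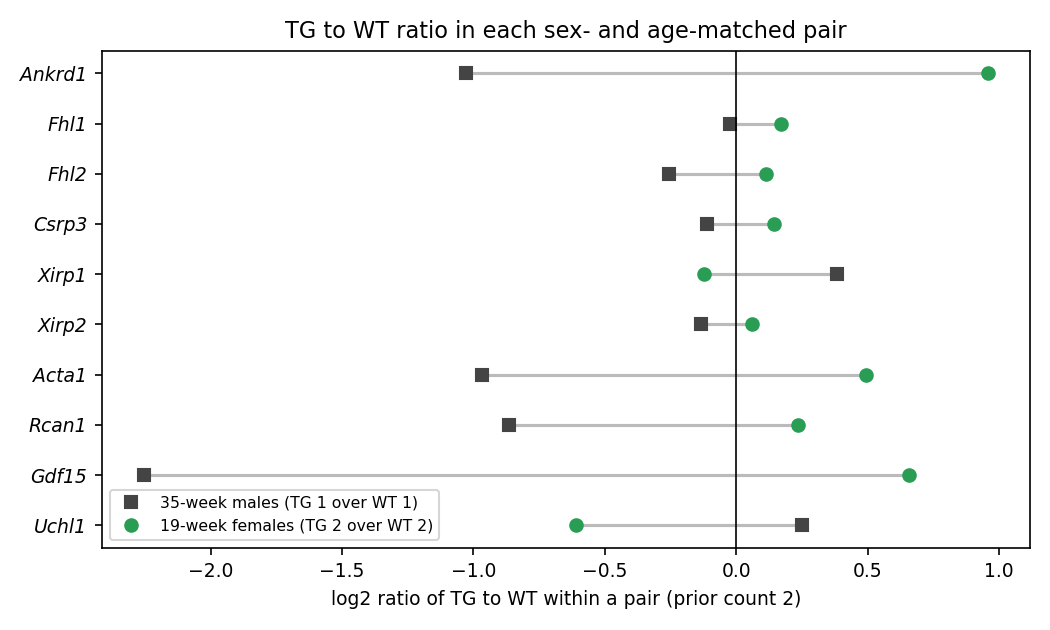
Log2 ratio of TG to WT for each of the 10 genes in the 35-week males (squares) and the 19-week females (circles), with a line joining the 2 values of a gene. In all 10 genes the 2 points lie on opposite sides of 0, with Gdf15 at -2.25 and 0.66 the farthest apart among them.

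A test of this difference between the pairs, fitted over all genes with the interaction as its only term, called 0 of the 10 members and 2.72% of the tested genes. It sets WT 2 and TG 1 against WT 1 and TG 2, and its coefficient is 2 times the fitted log2 difference between those groups. For Acta1 that difference was -0.76 and the coefficient -1.52. The coefficient equals the male minus the female log2 ratio where genotype and pair add nothing of their own. Fitted coefficients were negative for 8 members and positive for 2, with a median of -0.31 against 0.01 over all tested genes. WT 2 and TG 1 were both below WT 1 and TG 2 in 5 members (24.6% of tested genes) and both above in 2 (22.9% of tested genes). An unadjusted p below 0.05 was found for 4 of 10 members, against 16.2% of the tested genes.

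Those 4 were the members with the largest coefficients of variation. Both measures come from the same 4 libraries, so this overlap is not a separate observation. Acta1 had a coefficient of -1.52 ± 0.42 (unadjusted p = 0.0113, adjusted p = 0.155), Rcan1 of -1.12 ± 0.34 (0.0171 and 0.192), Gdf15 of -2.64 ± 0.86 (0.0220 and 0.215) and Ankrd1 of -2.01 ± 0.77 (0.0400 and 0.278), by edgeR with Benjamini-Hochberg adjustment. Acta1 was called by DESeq2 (adjusted p = 0.0148), with adjusted p-values from 0.0148 to 0.194 over the settings that kept all 4 libraries, and without a filter Acta1 and Gdf15 were called. With the replicate number as a block Ankrd1 was called (adjusted p = 0.0213). Without WT 1 the coefficients were -0.93 for Ankrd1, -0.86 for Acta1 and -0.67 for Rcan1, with adjusted p-values of 0.892, 0.739 and 0.797. Without WT 2 that of Ankrd1 was -1.28. For Gdf15 it was -1.56 without TG 1, and without WT 2 it was -4.46 and was called (adjusted p = 0.0345). The other 6 members had coefficients from -0.36 for Fhl2 to 0.83 for Uchl1, and adjusted p-values from 0.480 to 0.854.

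Markers of other cells followed the same split of libraries. All 9 of 9 macrophage markers were higher in WT 1 and TG 2 than in WT 2 and TG 1, and 7 of the 9 were called. Their sum was 1660 CPM in WT 1, 293 in WT 2, 280 in TG 1 and 1330 in TG 2, with no marker at 0 throughout. The 6 lymphocyte markers summed to 20.7 CPM in WT 1, 1.79 in WT 2, 0.711 in TG 1 and 21.4 in TG 2. The 5 erythroid markers did not follow it, with 717 CPM in WT 1 and 142 to 235 in the others. The 6 fibroblast markers summed to 1570 to 1660 CPM. Endothelial markers ran the opposite way in 4 of 5, with sums of 855 CPM in WT 1, 1140 in WT 2, 974 in TG 1 and 914 in TG 2, and 0 were called. The 5 smooth muscle markers summed to 313 to 384 CPM, and 4 of the 5 had positive coefficients while Acta2 was at -1.36 (adjusted p = 0.224). Of the 7 skeletal muscle markers 2 passed the filter, with coefficients of 0.15 and -2.49, and 0 were called. For 1 of these 2, WT 2 and TG 1 were both below WT 1 and TG 2. In tissue RNA, fewer cells of a type and less RNA per cell cannot be told apart, and the part of these cells in the members' levels was not tested.

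The 6 cardiomyocyte markers summed to 107000 CPM in WT 1, 150000 in WT 2, 179000 in TG 1 and 112000 in TG 2, so their sum was lower where Acta1 and Rcan1 were higher. Most of each sum came from a single marker, Ttn. The part of these markers in the result was not tested. Coefficients were positive for 5 of the 6, and 0 were called. Those of Tnni3, Myl2, Tnnt2 and Actc1 were 0.08, 0.01, 0.22 and -0.14, and that of Myh6, the adult myosin heavy chain, was 1.18 (unadjusted p = 0.00763, adjusted p = 0.126). Ttn, the titin gene, had the same sign as Myh6 and the opposite sign to Acta1 and Rcan1. It was at 61650 CPM in WT 1, 96930 in WT 2, 118200 in TG 1 and 63260 in TG 2 (coefficient 1.57 ± 0.29, adjusted p = 0.0570). Across protein-coding genes the coefficient rose with exonic length (Spearman's rho 0.285 over 12827 genes, which are not independent replicates). With offsets that remove this trend the coefficients were -1.34 for Acta1, -1.91 for Ankrd1, -1.07 for Rcan1 and -2.50 for Gdf15, and that of the 11979 bp Xirp2 moved from -0.20 to -0.52.

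The 35-week males and 19-week females were compared as a second labelled difference in the same libraries. None of the 10 members was called, against 0.0282% of tested genes, and 1 had an unadjusted p below 0.05, against 3.62% of tested genes. That was Xirp2, with a log2 fold change of males over females of 0.38 ± 0.12 (1.31-fold, unadjusted p = 0.0297, adjusted p = 0.999 by edgeR). Groups did not overlap for 3 members, Xirp2 and Csrp3 higher and Fhl2 lower in the males, where 31.5% of tested genes did not overlap. Ankrd1 had the widest difference among the members at 0.90 ± 0.47 (adjusted p = 0.999), and its male values of 7540 and 3695 CPM overlapped the female values of 2042 and 3963 CPM.

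Around the members, lists of related genes were counted in the same tests, each list drawn up with earlier results of these data known. Other genes of the load-induced programme leaned the same way as Acta1 and Ankrd1 in the difference between pairs. Of 35 tested, 28 had negative coefficients, where 6968 of 14189 tested genes did, with a median of -0.85. The called genes were the natriuretic peptide genes Nppa (-3.21 ± 0.42, adjusted p = 0.0224) and Nppb (-1.69 ± 0.25, 0.0319) and Socs3 (-2.21 ± 0.37, 0.0427), an inhibitor of cytokine signalling through the IL-6 receptor family. Nppa was at 3707 CPM in WT 1, 1057 in WT 2, 1556 in TG 1 and 4228 in TG 2, so it was higher in TG 2 than in WT 1, unlike Acta1, Ankrd1, Rcan1 and Gdf15. The 3 calls rested on single libraries: without WT 1 or without TG 2 the list had 0, without WT 2 it had Nppa, Myh6 and Acta2, and without TG 1 it had Nppa, Nppb and Fos. DESeq2 called 6 of the list, 5 with negative coefficients and Myh6, the adult myosin heavy chain, with a positive one. The replicate block called 8 and limma-voom 2, Nppa and Nppb, all with negative coefficients. Between TG and WT, 21 of 35 were higher (12 of 35 without WT 2, 28 of 35 without WT 1) and 0 were called, with Thbs1, named after its values were seen, at -0.66 and an unadjusted p of 0.0209.

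Partners of the members at the Z-disc and I-band did not share that direction. Of 30 tested, 19 had positive and 11 negative coefficients in the difference between pairs, with a median of 0.24 and 0 called. Without TG 1 the split was 15 to 15. Filamin C, whose gene Flnc was named after its values were seen, came closest by edgeR (1.40 ± 0.25, adjusted p = 0.0501). In TG against WT, 17 of 30 were higher (12 without TG 1, 23 without TG 2) and 0 were called, and the smallest p-values belonged to Des, the intermediate filament desmin, at -0.30 and Ankrd23, a relative of Ankrd1, at -0.45 (unadjusted p = 0.0934 and 0.0982).

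In the calcineurin, NFAT and MEF2 list, 26 of 30 tested genes were fitted higher in TG, where 6743 of 14189 tested genes were. Their median was 0.15 on the log2 scale, and 0 were called. Across protein-coding genes the log2 value of TG over WT also rose with exonic length (Spearman's rho 0.230 over 12827 genes). With length offsets the median was 0.09 and 25 of 30 were higher. Without TG 1 the median was 0.03, with 20 of 30 higher. The genes of smallest p were Hdac4, a repressor of MEF2, at 0.50 and the calcineurin subunit Ppp3cb at 0.25 (unadjusted p = 0.163 and 0.166). Rcan1, the feedback inhibitor of this pathway, was at -0.33 ± 0.29 in the same fit. In the difference between pairs 23 of 30 were positive with a median of 0.45 (0.23 with length offsets) and 0 called, against -1.12 for Rcan1. DESeq2 called 1 of them, Nfat5.

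Mechanosensing, focal adhesion, YAP and SRF genes were divided, at 24 of 39 higher in TG (17 without TG 1, 30 without WT 2) with a median of 0.04 and 0 called. The Hippo pathway genes Yap1 and Lats2 had the smallest p-values there, at 0.39 and 0.44 (unadjusted p = 0.1003 and 0.102). For the difference between pairs 26 of 39 were positive with a median of 0.14 and 0 called, and DESeq2 called 1, Parvb. Under length offsets the counts were 19 of 39 and 21 of 39.

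**Figure D4:**
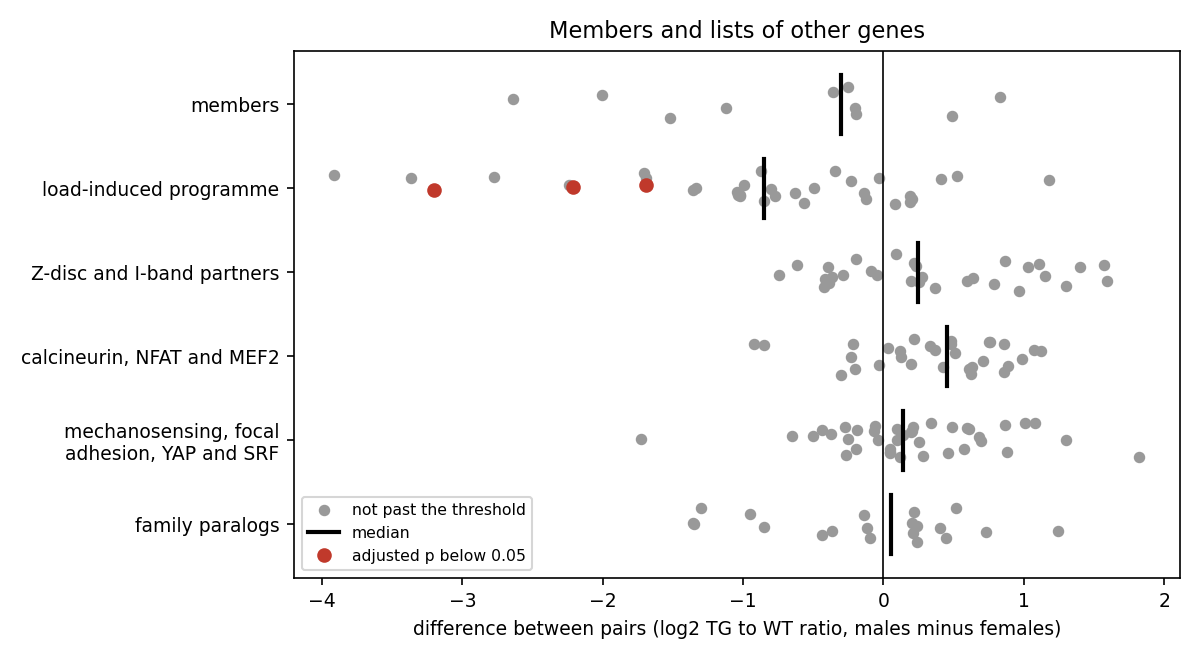
Fitted difference between pairs (log2, males minus females) for each tested gene of the 10 members and of 5 lists of other genes, with black bars for medians and red points for the 3 genes past an adjusted p of 0.05. The median is -0.31 for the members and -0.85 for the load-induced programme, and the other 4 medians lie between 0.05 and 0.45.

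The nearest relatives of the members were counted as well. Of 20 tested paralogs 8 were higher and 12 lower in TG, with 0 called, and Ankrd23 and Csrp1 had the smallest p-values (unadjusted p = 0.0982 and 0.159). The relatives described next were chosen after their values were seen. Ankrd23 was at 1301 CPM in WT 1, 920 in WT 2, 883 in TG 1 and 745 in TG 2, so TG 2 was lowest where Ankrd1 had its second highest value. Rcan2, another calcineurin regulator, was at 578 CPM in WT 1, 266 in WT 2, 608 in TG 1 and 593 in TG 2, with WT 2 alone low. Csrp1, of the same family as Csrp3, was at 28.0 ± 2.67 CPM per kb against 506 ± 37.7 for Csrp3. The Uchl1 relatives Uchl3 and Uchl5 were at 4.498 ± 0.268 and 5.09 ± 0.716 CPM per kb, against 3.65 ± 0.784 for Uchl1. Alignments of at least 100 bp at an average identity of at least 90% joined members only to Actb and Actg1, with Acta1, and to the antisense genes of Uchl1 and Xirp2. Longer alignments of lower average identity were not kept, even where they may hold closer stretches. Actb shared 239 bp at 92.5% and had a coefficient of -0.95 in the difference between pairs, the same sign as Acta1 (unadjusted p = 0.0154, adjusted p = 0.184). The smooth muscle actin gene Acta2 had it too, at -1.36 (unadjusted p = 0.0246). In that comparison 10 of 20 paralogs were positive and 10 negative, with 0 called.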

How the data were processed

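The authors deposited raw read counts per Ensembl gene, 1 column per mouse, which were used as deposited. A second table of normalized values was not used here. Per the submitters' processing notes, the tools named were STAR 2.3.0, HTSeq 0.6.1, DESeq, CASAVA 1.8.2 and FastQC 0.10.0, and the build was mm10. Neither the gene annotation version nor the strandedness of counting is stated there. Per the labels' protocols, libraries were made from total RNA with a stranded kit.

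In R 4.3.3, edgeR 4.0.16 kept genes by filterByExpr (minimum count 10), scaled libraries by TMM and ran the quasi-likelihood test with Benjamini-Hochberg adjustment at 0.05, without a block. SE are those of the fitted log2 values, and within-pair ratios were taken after adding a prior count of 2. DESeq2 1.42.0, limma-voom (limma 3.58.1), other scaling, no filter, length offsets, blocks and leaving out each library were alternatives. Exonic lengths and positions came from GENCODE vM21 (99.2% of tested genes matched), and copies from a transcript search. The members, lists and the test between pairs were chosen with earlier results of these data known. All 10 members were named whatever their values. Of each list, the genes past the threshold were named or, where none passed, the 2 of smallest p between TG and WT. With 4 libraries no likeness of patterns between genes was computed.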

Additional observations from a re-analysis of the deposited data

Results flagged for a closer look

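The test of the difference in the TG to WT ratio between the pairs called 386 genes, none of them a member. Among the lists of related genes, it called 3. The fitted difference was -3.21 for Nppa, -1.69 for Nppb and -2.21 for Socs3 on the log2 scale, by edgeR after Benjamini-Hochberg adjustment. All 3 were higher in both WT 1 and TG 2 than in both WT 2 and TG 1. Each of the 4 cells of this design is 1 mouse, sex and age cannot be told apart, and none of the 3 was called without WT 1 or without TG 2. The 10 members had adjusted p-values from 0.155 to 0.854.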

How the results depend on the processing

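Between TG and WT 0 genes were called, against 3 by DESeq2 and 0 to 8 without 1 library, and 0 of the 10 members were called under any of the alternatives. With the replicate number as a replicate block the count was 0 (61 genes below an unadjusted 0.05). Deviations from the genotype means correlated at -0.449 between same-numbered libraries, which by their labels share sex and age. A crossed replicate block, which sets WT 2 and TG 1 against WT 1 and TG 2, was chosen after seeing the data. It also called 0 (303 below an unadjusted 0.05). Between males and females 4 genes were called, against 7 without a filter, 34 by DESeq2, 0 with genotype as a block and 0 to 9 without 1 library. For the difference between pairs 386 were called, against 908 without a filter, 703 by DESeq2, 741 with the replicate block and 44 to 366 without 1 library. The members called there numbered 2 without a filter (Acta1 and Gdf15), 1 by DESeq2 (Acta1), 1 with the replicate block (Ankrd1, adjusted p = 0.0213) and 0 to 1 without 1 library. The cause of these changes was not tested.

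Signs turned only when a library was left out. For TG over WT the log2 values then ran from -0.77 to 0.32 for Acta1, -0.975 to 0.908 for Ankrd1, -0.11 to 0.37 for Xirp1, -0.27 to 0.21 for Xirp2, -0.29 to 0.15 for Fhl2, -0.62 to 0.032 for Rcan1, -0.11 to 0.15 for Csrp3, -1.96 to 0.16 for Gdf15 and -0.57 to 0.20 for Uchl1. For males over females they ran from -0.14 to 0.82 for Acta1, -0.33 to 0.53 for Rcan1, -0.074 to 0.10 for Fhl1 and -1.82 to 0.51 for Gdf15. For the difference between pairs those of Xirp2 ran from -0.59 to 0.25. A lone library of a group was assumed to vary like the others. With 2 mice per genotype and counts of 24 to 142 for Gdf15 and 63 to 101 for Uchl1, moderate changes of these genes were not detectable.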
